A study of Mus musculus with 7 samples.

Results

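The sites described here are places in the genome of mouse regulatory T (Treg) cells where IRF4 was called with and without RelA, but with a lower peak score without it. They were selected by their scores: a summit from p65KO cells and one from WT cells were paired when each was the nearest to the other and they lay no more than 200 bp apart on chromosomes 1 to 19 or X. Of 3594 such pairs, the 359 with the lowest log2(p65KO score / WT score) are called weakened pairs below, and the other 3235 pairs are the comparison set. The scores that selected the pairs are therefore described without a test.

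Peak summits came from chromatin immunoprecipitation sequencing (ChIP-seq) of splenic Treg cells of C57BL/6 mice. IRF4 was precipitated from RelA-deficient cells, labelled p65KO (2 samples), and from WT cells (3 samples), both after 48 h of stimulation through CD3 and CD28. RelA (p65) was precipitated from WT cells (2 samples) stimulated with PMA and ionomycin for 30 min. The sources used here do not give the allele or Cre line behind p65KO, the age of the mice, or whether samples came from separate animals. Peak lists hold no expression values, so the labelled cell type could not be checked against markers.

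IRF4 is a transcription factor that rises with T cell receptor signalling and is needed by effector Treg cells. It binds DNA weakly alone, and in T cells often together with BATF and JUN proteins at composite elements that join an AP-1 site and an IRF half-site. RelA is an activating subunit of canonical NF-κB, which is held in the cytoplasm by inhibitors of the IκB family and enters the nucleus after signals from antigen receptors or TNF receptor family members. NF-κB proteins bind κB elements and are known to raise transcription of the Irf4 gene in lymphocytes.

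Each antibody and genotype came as 1 list of summits, with 4270 p65KO IRF4, 5533 WT IRF4 and 605 p65 summits on these chromosomes. The score of a summit is the significance of its peak on a −log10 scale, as the authors deposited it. A ratio of such scores ranks the strength of a call and is not a ratio of bound protein. The replicates are combined in each list, so no score below has a replicate error, and read depth is unknown. The IRF4 lists combine unequal numbers of samples, 2 in p65KO and 3 in WT cells. All positions are 1-based WT summits on mm9 unless stated otherwise. Genes and sequence around the summits were not analysed here, because no genome of that build was at hand.

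The weakened pairs were mostly in the upper part of the WT list and in the lower part of the p65KO list. Of them, 271 (75.5%) were below the median p65KO score and 333 (92.8%) above the median WT score. Selection by a low ratio favours both counts. These medians, 27.3 in p65KO and 26.5 in WT cells, are of the full lists, which include unpaired summits. The unweighted comparison pairs had higher medians than the lists, 32.6 in p65KO (interquartile range 22.0 to 54.3) and 33.5 in WT cells (22.2 to 55.0). Most comparison pairs were thus also above the median WT score, and most were above the median p65KO score. The exact shares of comparison pairs past each list median were not counted. The weakened pairs had a median score of 19.5 in p65KO cells (interquartile range 15.6 to 26.8) and 46.8 in WT cells (35.8 to 62.2). The comparison pairs, weighted to the same spread of mean log2 score, had medians of 30.2 in p65KO and 30.6 in WT cells. The median weakened pair thus kept 45.4% of its WT score, and the range ran from 20.3% to 53.8%. The median rank of the weakened pairs was 3071 among the 4270 p65KO summits and 1238 among the 5533 WT summits.

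The p65KO score was below 50% of the WT score at 271 of the 359 weakened pairs, against 7.54% of all 3594 pairs, which contain these same 271. A p65KO score below the WT score was found at every weakened pair and at 57.7% of all pairs. Both counts follow from how the pairs were selected. At 47 weakened pairs the p65KO score was below 1/3 of the WT score, and at 6 it was below 1/4.

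**Figure D1:**
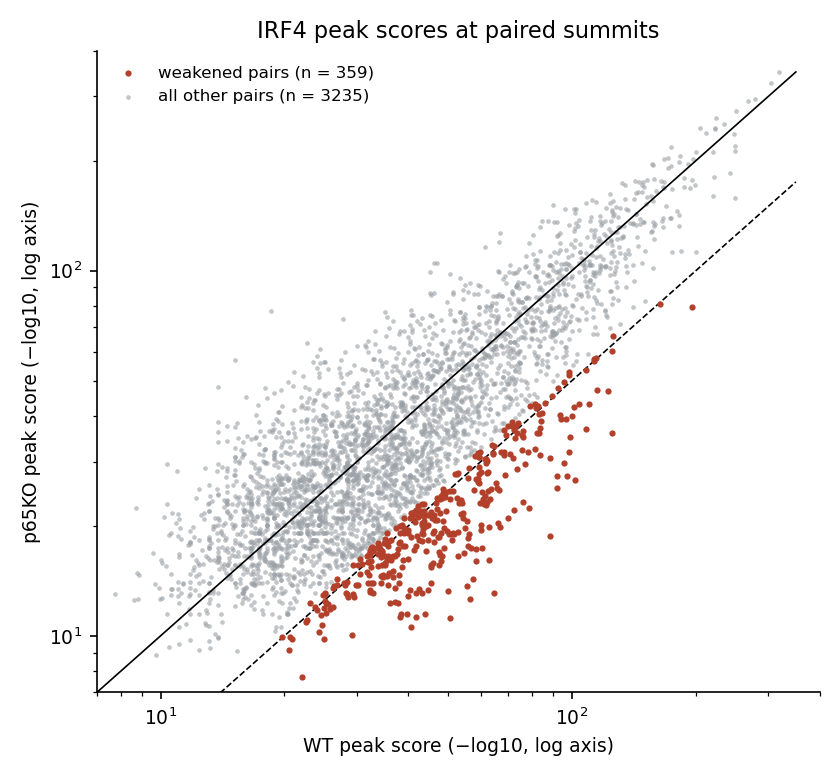
Authors' IRF4 peak score (−log10) of each paired summit in p65KO cells (vertical) against WT cells (horizontal), both on log axes, with weakened pairs in red and all other pairs in grey; the solid line marks equal scores and the dashed line a p65KO score of 50% of the WT score. The red points lie along and below the dashed line, from WT scores of 19.7 up to 196, and thin out toward the strongest sites.

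The limit cut a continuous distribution of ratios. Over all pairs the median log2 ratio was −0.11 (95% binomial interval of the median −0.13 to −0.09), and the weakened pairs began at −0.89. The last pair inside was chromosome 10 at 117609751, with a score of 42.6 in p65KO and 79.0 in WT cells. The others just inside were chromosome 8 at 90143604 (38.5 in p65KO and 71.5 in WT) and chromosome 2 at 59177967 (17.6 and 32.6). Just outside lay chromosome 10 at 41606172 (13.6 in p65KO and 25.3 in WT), chromosome 5 at 77646953 (10.6 and 19.7) and chromosome 13 at 5514303 (20.2 and 37.4). On both sides of the limit the p65KO score was close to 54% of the WT score, between 53.8% and 54.0%. At the other end of the distribution, 127 pairs were at least as far above a ratio of 0 as the weakened pairs were below it.

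The pairs with the lowest ratios stood in the upper part of the WT list and in the lower part of the p65KO list. Selection by a low ratio favours this placement, since no p65KO score on these chromosomes was under 7.50. The lowest was chromosome 13 at 113233557, with a score of 13.1 in p65KO and 64.5 in WT cells, a log2 ratio of −2.30. Its rank was 4068 of 4270 in p65KO and 731 of 5533 in WT cells. Chromosome 6 at 129527259 followed, with 18.7 in p65KO and 88.2 in WT cells. Over these 10 pairs the ranks were 2180 to 4221 of 4270 in p65KO and 272 to 1557 of 5533 in WT cells.

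Chromosome 15 at 54833846 had 11.2 in p65KO and 50.5 in WT cells. At chromosome 2, position 52166313, the scores were 12.6 in p65KO and 56.5 in WT. Chromosome 1 at 163336711 had 13.7 in p65KO and 55.4 in WT cells, and chromosome 3 at 84533132 had 14.3 and 57.4. Chromosome 4 at 43985041 (16.1 in p65KO and 62.9 in WT), chromosome 2 at 125603199 (10.6 and 40.6) and chromosome 12 at 4742881 (11.5 and 44.0) were at 25.6% to 26.1% of the WT score. Chromosome 1 at 135796416 had the highest WT score of the 10, with 26.8 in p65KO and 102 in WT cells. The nearest p65 summit lay 709 kb to 31345 kb away from these 10 sites, and the median distance over all comparison pairs was 2825 kb.

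The p65KO summit lay within 50 bp of the WT summit at 3 of these 10 pairs, among them chromosome 1 at 135796416, where both fell on the same base. The largest displacement of the 10 was 75 bp, at chromosome 13 at 113233557. Over all weakened pairs the median displacement was 19 bp, against 18 bp in the weighted comparison set. Summits lay within 50 bp of each other at 300 weakened pairs (83.6%) and at a weighted 86.3% of the others. The p65KO summit was at the higher coordinate at 177 weakened pairs, at the lower coordinate at 175 and on the same base at 7.

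The weakened sites with the highest WT scores were still among the higher p65KO summits, at ranks 398 to 1498 of 4270. The highest WT score among them was at chromosome 14 at 75167777, with 79.5 in p65KO and 196 in WT cells, ranks 406 and 24. Chromosome 7 at 125279221 had 80.9 in p65KO and 164 in WT cells, ranks 398 and 53. These were the 2 weakened pairs among the 100 highest WT summits. The highest 500, all of which were paired, held 47, close to the 10% of pairs that the selection takes.

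Next in WT score was chromosome 7 at 4813078 (66.2 in p65KO and 126 in WT). Chromosome 14 at 45714467 had 60.2 in p65KO and 125 in WT cells. Chromosome 13 at 115671023, with 35.9 in p65KO and 125 in WT cells, had the lowest ratio of the 10, 28.7% of its WT score. Chromosome 2 at 11564268 had 46.9 in p65KO and 123 in WT cells, and chromosome 1 at 191527648 had 47.2 and 115. The other 3 of the highest 10 were on chromosome 6 (108460523 and 115430225) and chromosome 7 (124572550) and scored 56.6 to 57.5 in p65KO and 113 to 115 in WT cells, close to the 50% line. The nearest p65 summit to any of these 10 sites was 1608 kb away.

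Weakened pairs were spread unevenly over the range of peak scores. In deciles of the mean log2 score of both genotypes, they made up 5.00% of pairs in the lowest decile (18 of 360, 95% Wilson interval 3.19 to 7.76), 17.8% in the fifth (64 of 359, 14.2 to 22.1) and 1.11% in the highest (4 of 359, 0.434 to 2.83). The standard deviation of the log2 ratio over pairs moved the same way, with 0.50, 0.69 and 0.34 in these deciles. A pair with a WT score under 13.9 could not be selected, since the lowest p65KO score on these chromosomes was 7.50, and 150 pairs lay under that bound.

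**Figure D2:**
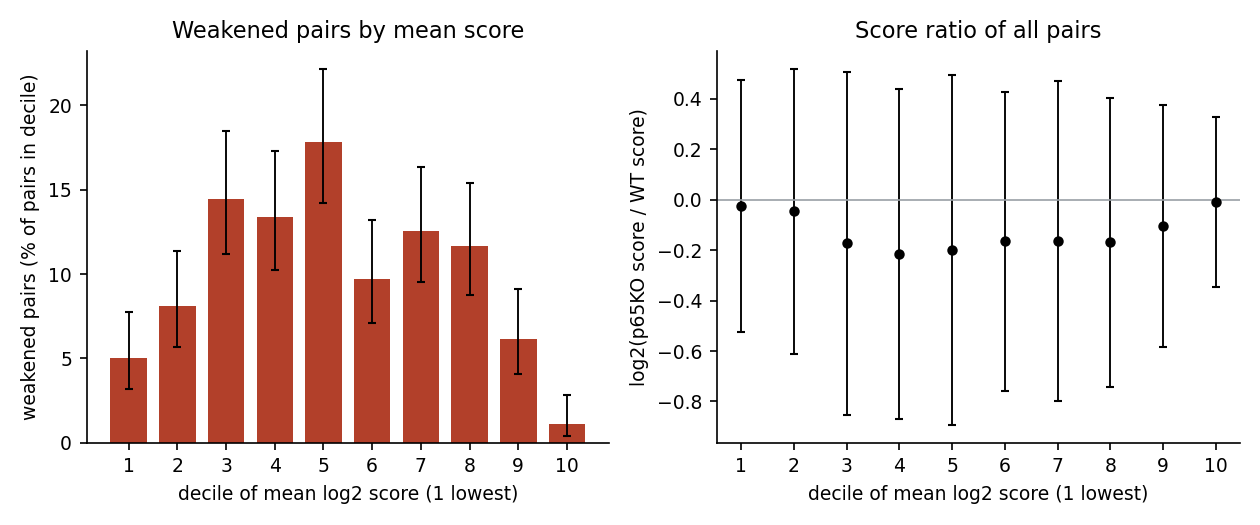
Left, share of pairs that were weakened in each decile of the mean log2 score (bars, with 95% Wilson intervals). Right, median log2(p65KO score / WT score) of all pairs per decile, with error bars of 1 SD over pairs. The share peaks at 17.8% in decile 5 and falls to 1.11% in decile 10, where the SD of the ratio is also smallest.

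The p65 list took no part in the selection, so a test asked whether weakened IRF4 sites coincided with p65 summits in WT cells. Most did not. A p65 summit lay within 200 bp of 15 of the 359 weakened pairs (4.18%, 95% Wilson interval 2.55 to 6.78), and 344 (95.8%) had none. Of the 3235 comparison pairs, 96 had one (2.97%, 2.44 to 3.61), or 2.55% after weighting to like mean score. Within deciles of mean score the odds ratio was 1.67 (95% interval 0.87 to 3.00, two-sided exact Cochran-Mantel-Haenszel test, p = 0.0837, 0.167 after Benjamini-Hochberg adjustment over 2 tests). No difference was detected, and the interval includes both equal shares and a 3-fold higher odds. The strata were formed from the same scores that selected the pairs. Without strata the odds ratio was 1.43 (0.76 to 2.51, Fisher exact test, p = 0.199), and with strata of the WT score it was 1.38 (0.72 to 2.48).

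The odds ratio moved to 2.51 (1.13 to 5.15, exact test, unadjusted p = 0.0154) without dense p65 regions, runs of at least 3 p65 summits at most 50 kb apart, where 4 weakened and 38 comparison pairs lay. It moved to 1.07 (0.62 to 1.78) for the lowest 20% of ratios. With sites chosen by the fall in rank in place of score it was 0.95 (0.40 to 1.99). The estimate thus fell on either side of 1, but both of these intervals include 1. Whether the odds ratio differed between ways of measuring weakening was not tested.

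A wider search found few additional p65 summits around the weakened pairs. Within 10 kb the count was 16 weakened pairs (4.46%, 2.76 to 7.12) and 121 comparison pairs (3.74%, 3.14 to 4.45; weighted 3.19%). The stratified odds ratio was 1.41 (0.76 to 2.47, exact test, p = 0.210, adjusted 0.210), and it was 0.85 (0.38 to 1.70) with ranks in place of scores. Within 50 kb the shares were 6.69% of weakened and 5.50% of comparison pairs. The median distance from a WT summit to the nearest p65 summit was 3120 kb for weakened pairs and 2825 kb for comparison pairs. The p65 cells had been stimulated differently and for a shorter time, so these distances do not describe RelA in the cells used for IRF4.

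**Figure D3:**
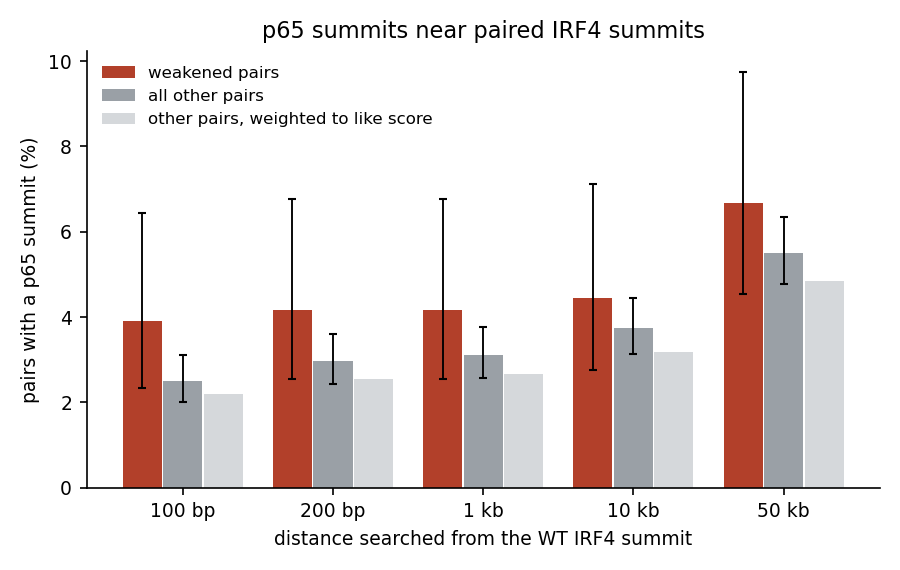
Percentage of weakened pairs (red), of all other pairs (dark grey) and of other pairs weighted to the same spread of mean score (light grey) with a p65 summit within 100 bp to 50 kb of the WT IRF4 summit; lines are 95% Wilson intervals. The red bars stand from 3.90% at 100 bp to 6.69% at 50 kb, above the grey bars at each distance, and their intervals overlap those of the other pairs throughout.

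The 15 weakened pairs with p65 included sites where the 3 summits nearly coincided. At 9 of the 15 the p65 summit was within 20 bp of the WT IRF4 summit, as it was at 56 of the 96 comparison pairs with p65. Chromosome 4 at 28104123 carried p65 on the same base, with a p65 score of 39.8 and IRF4 scores of 30.8 in p65KO and 59.5 in WT cells. Chromosome 11 at 34495406 had the highest p65 score of the 15, 61.9 at a distance of 92 bp, with IRF4 at 37.1 in p65KO and 83.4 in WT cells.

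Chromosome 18 at 82390531 (p65 score 60.6, IRF4 36.0 in p65KO and 83.1 in WT), chromosome 11 at 53954034 (51.5, with 42.5 and 82.9) and chromosome 13 at 3372440 (45.2, with 38.8 and 83.9) had p65 within 2 bp. These 4 sites with the highest p65 scores also had the 4 highest WT IRF4 scores of the 15. Whether p65 and IRF4 scores went together in the 96 comparison pairs with p65 was not examined. Chromosome 12 at 68160496 had the lowest ratio among the sites with p65, with IRF4 at 22.1 in p65KO and 72.4 in WT cells and a p65 score of 33.7 at 26 bp. The rest of the 10 highest in p65 score were chromosome 19 at 45724650 (p65 score 35.2) and chromosome 3 at 8245384 (27.2), and, inside dense p65 regions, chromosome 10 at 57688163 (36.4) and chromosome 5 at 14989221 (24.8).

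The other 5 had p65 scores of 8.73 to 20.1. The 15 sites ranged from 11.1 to 42.5 in p65KO and from 22.7 to 83.9 in WT IRF4 score. The median log2 ratio was −1.10 at the 15 with p65 and −1.14 at the 344 without, with overlapping ranges of −1.71 to −0.95 and −2.30 to −0.89. Counted the other way, 15 of the 111 pairs with p65 were weakened (13.5%, 8.36 to 21.1), against 344 of 3483 without (9.88%, 8.93 to 10.9). The median p65 score was 33.7 at the 15 weakened and 40.5 at the 96 comparison pairs. One further weakened pair, chromosome 3 at 135363597 (31.5 in p65KO and 70.6 in WT), had a p65 summit 9062 bp away with a p65 score of 40.8.

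The share of pairs with a weakened neighbour had overlapping intervals in weakened and comparison pairs. Of the 359 weakened pairs, 330 had no other weakened pair within 50 kb, 26 fell into 13 groups of 2 and 3 into 1 group. Another weakened pair was within 50 kb of 29 weakened pairs (8.08%, 5.68 to 11.4) and of 7.23% of comparison pairs (6.39 to 8.18; weighted 7.06%). Within 10 kb one lay near 8 weakened pairs (2.23%, 1.13 to 4.33) and near 54 comparison pairs (1.67%, 1.28 to 2.17). The comparison pairs within 10 kb of a weakened one had a median log2 ratio of 0.12 (interquartile range −0.23 to 0.32), against −0.05 for those farther away (n = 54 and 3181). A lower score in p65KO than in WT cells was seen at 21 of these 54 (38.9%) and at 53.3% of the farther ones. Within 50 kb the contrast was smaller, with medians of −0.00050 near a weakened pair and −0.05 elsewhere (n = 234 and 3001), and with 117 of the 234 near ones and 53.2% of the others lower in p65KO cells. Because these ratios come from the lists that selected the pairs, no test was made.

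IRF4 summits left unpaired by the 200 bp rule also lay near weakened and comparison pairs in shares with overlapping intervals. A WT summit without a p65KO partner lay within 10 kb of 25 weakened pairs (6.96%, 4.76 to 10.1) and of 9.83% of comparison pairs (8.85 to 10.9). A p65KO summit without a WT partner lay there in 12 weakened pairs (3.34%, 1.92 to 5.75) and in 3.28% of the others (2.72 to 3.95). Within 50 kb a WT summit without a p65KO partner lay near 105 weakened pairs (29.2%, 24.8 to 34.2) and 28.2% of the others (26.6 to 29.7). Within 5 kb such a WT summit lay near 3.06% of weakened pairs (1.72 to 5.40) and 5.47% of the others (4.74 to 6.31). For a p65KO summit without a WT partner the 5 kb shares were 2.23% (1.13 to 4.33) and 1.51% (1.15 to 2.00). These shares were not tested, and overlapping intervals do not show that shares are equal. Pairs from the highest 10% of ratios, in which IRF4 scored higher in p65KO cells, were within 10 kb of 6 weakened pairs (1.67%) and of 2.19% of the others. The median distance to the next WT IRF4 summit was 37.6 kb for weakened pairs and 36.1 kb in the weighted comparison set.

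**Figure D4:**
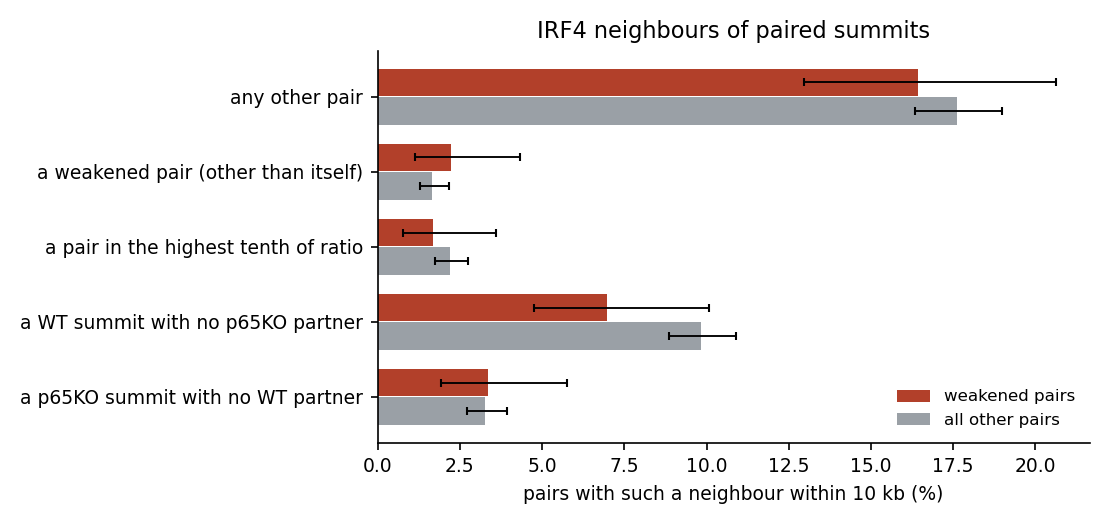
Percentage of weakened pairs (red) and of all other pairs (grey) with each kind of IRF4 neighbour within 10 kb of the WT summit, with 95% Wilson intervals. The red and grey intervals overlap in every class; another pair lay near 16.4% of weakened and 17.6% of other pairs.

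The largest group of weakened sites was on chromosome 2 from 128218185 to 128275237, 57.1 kb with 3 weakened pairs and 4 comparison pairs in or within 10 kb of it. The p65KO and WT scores were 19.6 and 43.5 at 128218185, 16.0 and 48.1 at 128259522, and 33.3 and 64.0 at 128275237.

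The closest neighbours were chromosome 7 at 36527496 and 36530383, 2.89 kb apart, with 18.2 and 31.8 in p65KO and 35.8 and 59.6 in WT cells. At chromosome 7, 125279221 and 125284962 were 5.74 kb apart and joined the second strongest weakened site (80.9 in p65KO and 164 in WT) to a weaker one (20.7 and 46.6). On chromosome 5 the summits at 105433545 (42.2 in p65KO and 81.5 in WT) and 105439611 (13.8 and 30.2) lay 6.07 kb apart. On chromosome 10 the summits at 18922329 (22.1 in p65KO and 41.9 in WT) and 18929734 (9.18 and 20.6) lay 7.41 kb apart. In each of these named groups of 2 the stronger site of WT cells was also the stronger site of p65KO cells. The group of 3 on chromosome 2 kept its strongest site, 128275237, but not the order of the others. There, 128259522 scored above 128218185 in WT cells (48.1 and 43.5) and below it in p65KO cells (16.0 and 19.6).

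Every chromosome examined carried weakened pairs. Their share of all pairs was between 3.94% on chromosome 17 (5 of 127, 1.69 to 8.89) and 12.7% on chromosome 12 (21 of 165, 8.48 to 18.7). Chromosome 1 had the most weakened pairs, 34 of 321 (10.6%, 7.68 to 14.4), and chromosome X had 5 of 43 (11.6%, 5.07 to 24.5). Chromosome 17 was the only chromosome whose interval did not reach 10%, with 20 chromosomes compared and no test made.

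**Figure D5:**
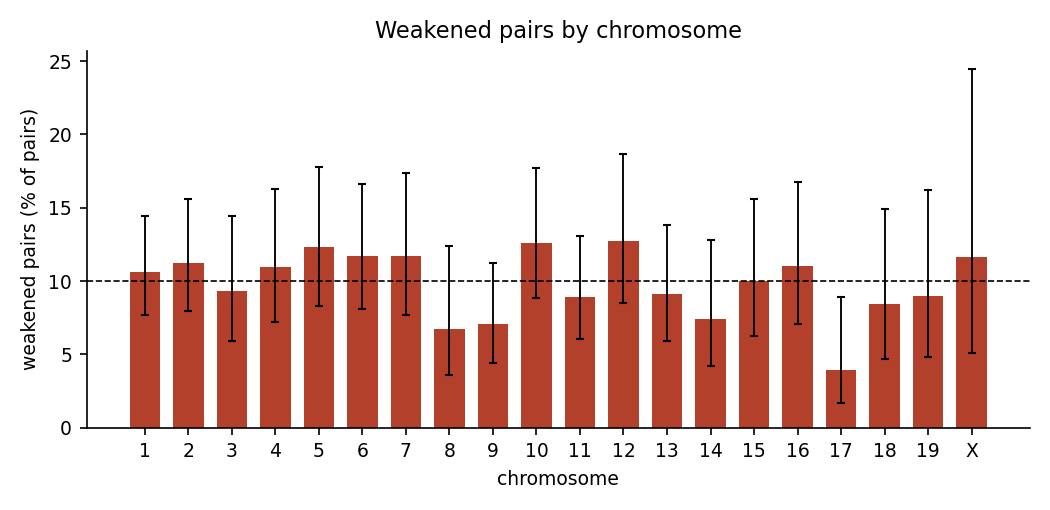
Share of IRF4 summit pairs on each chromosome that were weakened (bars, percent of pairs) with 95% Wilson intervals; the dashed line is the share over all chromosomes. Chromosome 17 stands lowest at 3.94% and chromosome 12 highest at 12.7%, and all intervals other than that of chromosome 17 cross the line.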

How the data were processed

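IRF4 ChIP-seq summit lists of p65KO (2 samples) and WT (3 samples) Treg cells and a p65 list of WT cells (2 samples) were used, grouped by sample title. Per the submitters' processing notes, MACS2 2.1.0, Subread and featureCounts were used with build mm9; the sources used here give no other settings. The deposited score is the authors' −log10 of a p-value or q-value; which of these is not given. Per the peak names, calls used no input library and q cut-offs of 1e-06 (IRF4) and 0.05 (p65). How replicates were combined is not stated in these sources.

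The pairs, the lists and the tests were chosen with earlier results of these data known. Comparison pairs were weighted to the spread of the weakened pairs over deciles of mean log2 score. Shares have 95% Wilson intervals. Presence of p65 was tested with the exact Cochran-Mantel-Haenszel test, two-sided, after a check on simulated lists. Those lists had evenly spaced sites and p65 shares unrelated to score, unlike the real lists. The check therefore covers the computation and not how the test behaves in these data. Sites, not samples, are the units, so intervals and p-values cover counting error alone and treat neighbouring sites as independent. Summits named were the 10 pairs with the lowest ratio, the 10 with the highest WT score, the 10 with the highest p65 score within 200 bp, 3 on each side of the limit and 5 groups of weakened pairs at most 50 kb apart, taken by number of pairs and then by closeness; the chromosome 3 site with p65 9062 bp away was named after its value was seen. Python 3.11.15, pandas 2.3.3, scipy 1.17.1 and R 4.3.3 were used. Alternatives are given in the closing section. Gene, motif and sequence analyses, all planned, were not run.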

Additional observations from a re-analysis of the deposited data

How the results depend on the processing

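No paired analysis was possible because the replicates are combined in each list, and for the same reason no replicate could be left out. The odds ratio for p65 within 200 bp (1.67, p = 0.0837, exact test) kept its direction and its side of the 0.05 threshold under 12 of 16 alternatives (1.07 to 1.82). It passed the threshold with pairing within 100 bp (1.91, exact p = 0.0425), without dense p65 regions (2.51, exact p = 0.0154) and with 1 pair per 10 kb (2.19, exact p = 0.0158). It turned to 0.949 when sites were chosen by the difference of ranks. The odds ratio for p65 within 10 kb (1.41) kept both under 13 of 15 alternatives (1.03 to 1.81), passed with 1 pair per 10 kb (1.94, exact p = 0.0314) and turned to 0.848 with ranks. The causes were not tested, and these p-values are not adjusted. A comparison with pairs within 0.25 of a log2 ratio of 0 was added after the data were seen and gave 1.72 and 1.38. The count of weakened pairs below 50% of the WT score and the median ratio of all pairs stayed within 1.5 times and within the interval given, for pairing within 100 bp and 500 bp and, for the median, on autosomes alone. Read depth is unknown, which limits the comparison of scores between the lists.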

Other observations

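Sequence outside chromosomes 1 to 19 and X was not searched for weakened pairs. It held 42 p65KO and 97 WT IRF4 summits, which formed 31 pairs with a median log2 ratio of −0.23 (range −1.42 to 0.79). At 4 of these the ratio was at or below the limit of −0.89.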
